A study of Homo sapiens with 12 samples.

Results

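The 33 genes described here encode proteins of the pathways that cut damaged or mispaired bases out of DNA, and were found by symbol in a table of 22564 genes from total RNA of A549 cells, an established human lung adenocarcinoma line. Of these, 11 belong to nucleotide excision repair, 17 to base excision repair and 5 to mismatch repair. All 33 had exactly 1 row. The cells had been transfected with 40 nM of a small interfering RNA against YTHDC1, a nuclear reader of N6-methyladenosine on RNA (siYTHDC1, 6 libraries), or with a scrambled control (siSCR, 6 libraries), and were kept for 48 to 72 h. Neither group carried any other treatment in its labels. The value used for each gene was the mean normalized count over all 12 libraries of both groups, as the authors deposited it. It is a single number per gene with no spread between libraries, so the level of a gene in either group, the target included, cannot be read from it, and no comparison of siYTHDC1 with siSCR is made below. The remaining numeric columns of the table belong to the authors' own comparison of the groups and were not used.

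Nucleotide excision repair removes bulky lesions such as those left by ultraviolet light. Damage is recognised either throughout the genome or where RNA polymerase has stalled, the helicases of the general transcription factor TFIIH open the strands, and a pair of nucleases cuts out a short piece. Base excision repair deals with small changes to single bases: a glycosylase removes the base, APEX1 nicks the backbone, and a polymerase and a ligase fill and seal the gap. Mismatch repair follows the replication fork, where MutS dimers recognise mispairs and MutL dimers mark the new strand for removal. Together these pathways keep mutation rates low in dividing cells.

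In reads collected, which depend on the length of a transcript as well as on its level, the 33 genes differed widely. The median of their mean normalized counts was 429, against 65.8 over all 22564 genes and 313 over the 14100 protein-coding genes. The lowest mean among the 22564 genes was 1.52, so genes with fewer reads are not part of this background. Of the 33, 32 lay above the median of all genes and 24 above that of protein-coding genes. DDB1 had the highest mean at 4203 and NEIL1 the lowest at 50.4. Together DDB1, RAD23B, MSH6, PARP1 and APEX1 held 51.0% of the summed means of the 33 genes. By pathway the counts ran from 106 to 4203 in nucleotide excision repair (median 425), from 50.4 to 2126 in base excision repair (378) and from 429 to 2396 in mismatch repair (752).

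**Figure D1:**
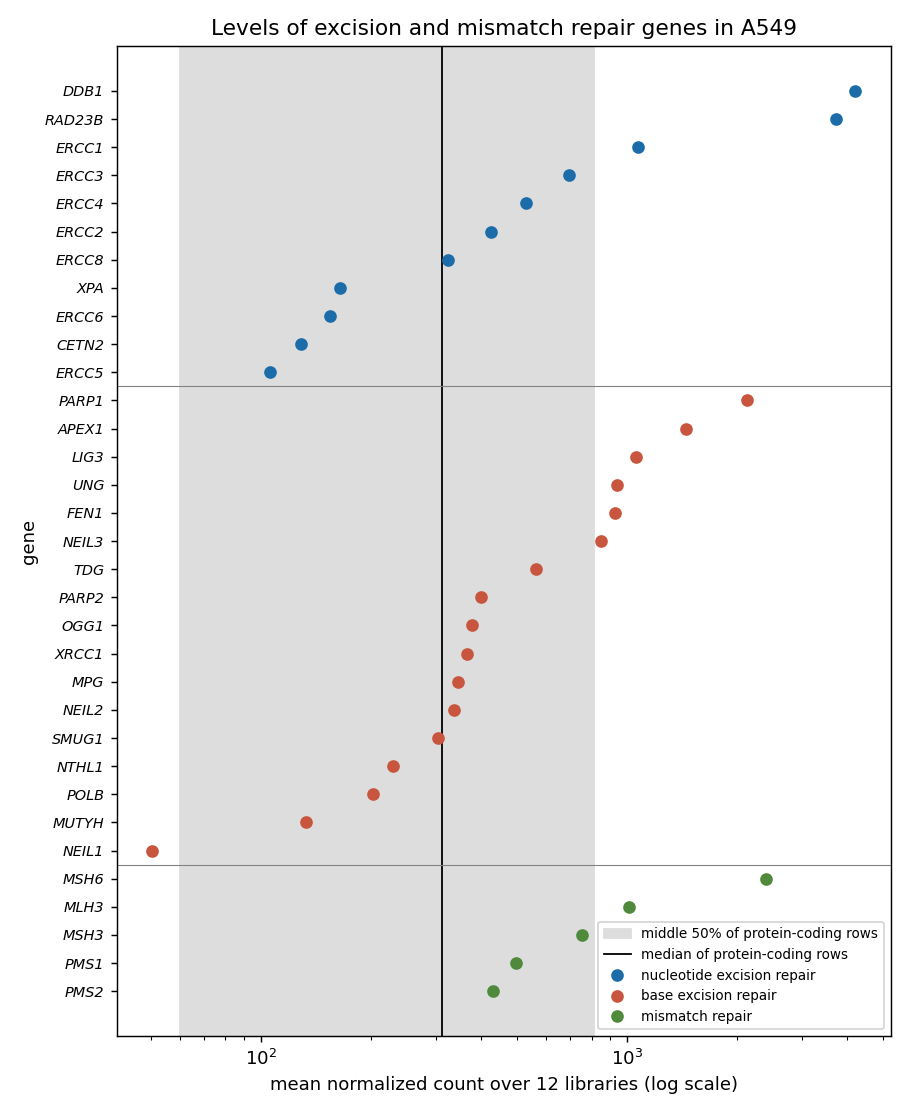
Mean normalized count over 12 libraries (x axis, log scale) of the 33 genes (y axis), 1 point per gene coloured by pathway and not adjusted for gene length, with the median (line, 313) and the middle 50% (grey) of protein-coding genes. DDB1 at 4203 and RAD23B at 3725 stand furthest right, and NEIL1 at 50.4 furthest left.

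A long transcript collects more reads than a short one. Normalized counts below therefore give the reads behind each gene, and the levels of different genes are compared per kilobase, with all annotated exons of a gene merged. On this scale RAD23B (808 per kilobase) and APEX1 (766) led, followed by FEN1 (423), NEIL3 (292) and DDB1 (271). ERCC6 (6.70), NEIL1 (7.27), ERCC5 (9.56) and ERCC8 (12.2) were lowest. The 33 genes had a median of 94.7 per kilobase, against 58.6 over protein-coding genes, and 23 of 33 lay above that value. Merged exons from a recent annotation include rare and intron-retaining isoforms, which lengthens some genes much more than others. The authors had counted reads on an older annotation, so exon bases added since then lengthen a gene without adding reads. With the longest single transcript, or with the reference transcript agreed between annotation groups (MANE Select), RAD23B, APEX1 and DDB1 held the first 3 places, and the same 4 genes were lowest under all 3 lengths. The spread between the highest and the lowest gene was 121-fold with merged exons and 73.1-fold with MANE Select transcripts. By pathway the medians per kilobase of merged exons were 68.0 in nucleotide excision, 100 in base excision and 121 in mismatch repair. Base excision thus stood 1.47-fold above nucleotide excision repair, although its median count was lower, and 2.11-fold above it with MANE Select transcripts. The place of mismatch repair depended on the length used, with 1.21 times the median of base excision repair for merged exons and 0.722 times for MANE Select transcripts. Genes are not replicates, so no test was made between pathways.

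**Figure D2:**
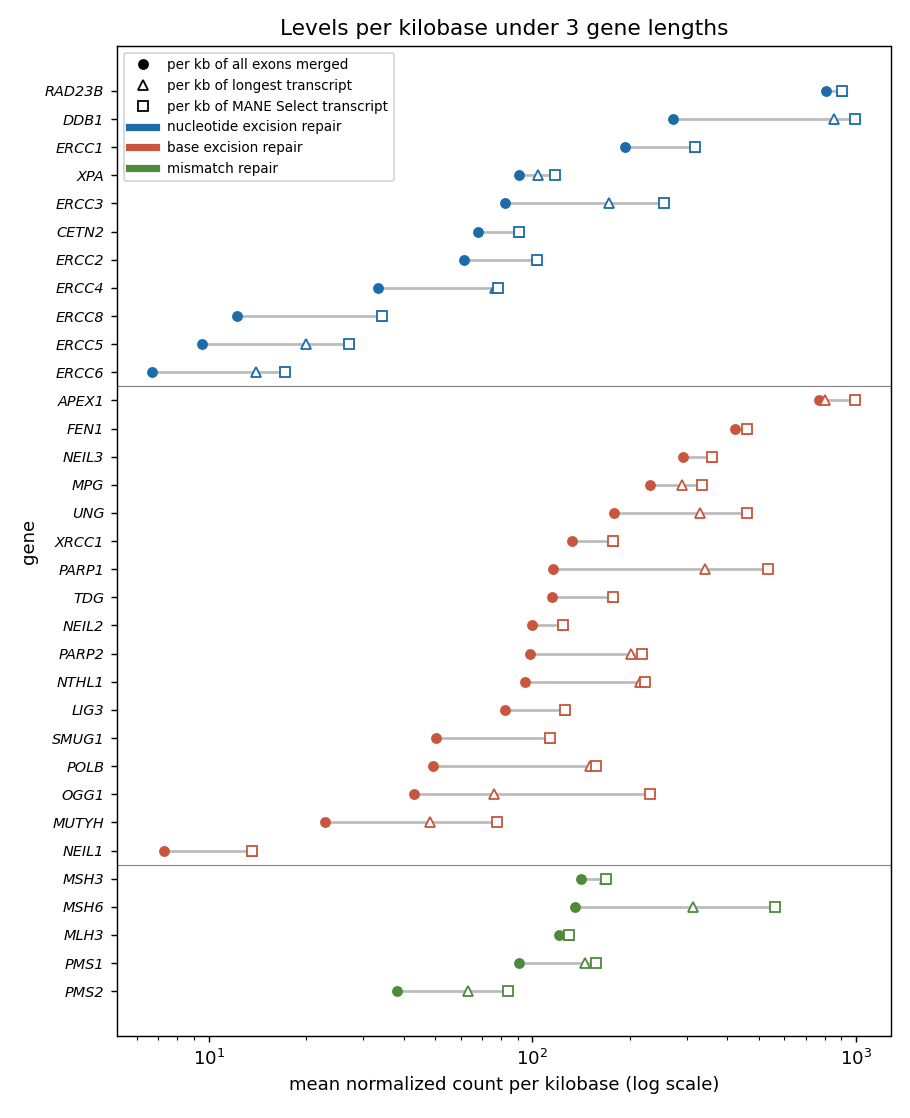
Mean normalized count per kilobase (x axis, log scale) of the 33 genes (y axis), with filled circles for merged exons, open triangles for the longest transcript and open squares for the MANE Select transcript, joined by a grey line per gene (a square covers the triangle where both lengths are nearly equal). RAD23B stands furthest right with merged exons at 808, ERCC6 furthest left at 6.70, and genes with many long isoforms such as PARP1 span from 116 to 535.

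The promoters of the genes at both ends of this scale are shown because level was the only property measured for them. RefSeq promoter sequences (250 bases before to 50 after the start) were matched for 30 of 33 genes on GRCh38.p14, while NEIL2, POLB and SMUG1 were not matched. The first listed promoter of each symbol was taken, which need not be the one used in these cells. Capitals mark matches on either strand to short motifs: GGGCGG (GC box), CCAAT, TTTCGCGC or TTTGGCGC (E2F), TGACGTCA (cyclic AMP response element), CCGGAAGT (ETS) and TATAAA, the TATA box. The 3 highest genes per kilobase of merged exons come first and the 3 lowest after them.
RAD23B promoter, chr9:107283029-107283328 of GRCh38.p14, plus strand: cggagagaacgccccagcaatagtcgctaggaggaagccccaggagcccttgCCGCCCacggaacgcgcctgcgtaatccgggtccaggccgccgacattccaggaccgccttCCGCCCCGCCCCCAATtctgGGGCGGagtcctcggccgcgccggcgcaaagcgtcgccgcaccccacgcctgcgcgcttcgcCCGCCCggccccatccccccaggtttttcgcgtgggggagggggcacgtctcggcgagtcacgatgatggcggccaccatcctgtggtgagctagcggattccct
APEX1 promoter, chr14:20454976-20455275 of GRCh38.p14, plus strand: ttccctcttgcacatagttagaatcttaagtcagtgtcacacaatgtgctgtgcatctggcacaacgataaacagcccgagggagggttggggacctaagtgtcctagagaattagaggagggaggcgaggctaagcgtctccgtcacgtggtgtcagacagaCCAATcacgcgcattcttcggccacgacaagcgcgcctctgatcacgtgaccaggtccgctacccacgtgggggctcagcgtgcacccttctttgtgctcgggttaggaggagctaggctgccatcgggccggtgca
FEN1 promoter, chr11:61792661-61792960 of GRCh38.p14, plus strand: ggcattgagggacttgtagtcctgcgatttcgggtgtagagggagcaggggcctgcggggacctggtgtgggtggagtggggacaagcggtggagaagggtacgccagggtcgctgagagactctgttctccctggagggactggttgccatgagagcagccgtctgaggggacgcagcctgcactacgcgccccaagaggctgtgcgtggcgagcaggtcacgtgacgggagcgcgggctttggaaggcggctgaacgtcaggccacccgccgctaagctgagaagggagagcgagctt
ERCC5 promoter, chr13:102845782-102846081 of GRCh38.p14, plus strand: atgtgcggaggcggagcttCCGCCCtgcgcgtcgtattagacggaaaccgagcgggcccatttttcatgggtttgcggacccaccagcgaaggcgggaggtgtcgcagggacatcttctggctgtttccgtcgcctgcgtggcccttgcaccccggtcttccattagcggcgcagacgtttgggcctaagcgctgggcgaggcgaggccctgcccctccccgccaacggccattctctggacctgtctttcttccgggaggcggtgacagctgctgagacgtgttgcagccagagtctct
NEIL1 promoter, chr15:75347585-75347884 of GRCh38.p14, plus strand: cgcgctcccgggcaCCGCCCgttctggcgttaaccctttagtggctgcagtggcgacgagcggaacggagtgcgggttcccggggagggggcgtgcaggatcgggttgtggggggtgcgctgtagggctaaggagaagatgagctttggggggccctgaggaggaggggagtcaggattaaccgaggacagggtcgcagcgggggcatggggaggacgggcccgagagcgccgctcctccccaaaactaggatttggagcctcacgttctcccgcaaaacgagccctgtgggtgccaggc
ERCC6 promoter, chr10:49539072-49539371 of GRCh38.p14, minus strand: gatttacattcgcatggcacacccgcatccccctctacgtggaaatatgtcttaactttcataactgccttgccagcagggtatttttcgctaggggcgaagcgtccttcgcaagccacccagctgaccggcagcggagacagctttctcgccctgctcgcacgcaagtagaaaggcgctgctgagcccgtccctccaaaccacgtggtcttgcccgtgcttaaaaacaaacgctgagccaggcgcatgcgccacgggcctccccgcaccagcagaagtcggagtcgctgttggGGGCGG

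RAD23B held 5 GC boxes and 1 CCAAT box. APEX1 held a CCAAT box alone and FEN1 none of the motifs searched. FEN1 was among the 3 highest with merged exons alone; DDB1, which took its place under the other lengths and is not shown, held 2 GC boxes. ERCC5, NEIL1 and ERCC6 held 1 GC box each. The GC box was found in 22 of 30 promoters of the repair genes, against 44.6% of all 27305 promoters of the same length. Those 27305 were filtered neither by expression nor by gene type, so they are not matched to the repair genes. CCAAT was found in 15 of 30, against 35.7% of all promoters. The E2F letters were found in MSH3 alone (1.18% of all promoters), the cyclic AMP response element in PARP2 and PMS2 (1.98%), and the ETS letters in ERCC3, NTHL1 and OGG1 (4.44%). TATAAA was in 0 of 30 and in 11.95% of all promoters. The median GC content was 64.3% in the repair genes and 58.3% in all promoters, with a median of 25.5 and 14 CG dinucleotides. A match is a stretch of letters and says nothing of binding.

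The damage sensors of nucleotide excision repair lay at both ends of the scale, with RAD23B at 808 per kilobase, DDB1 at 271, CETN2 at 68.0, ERCC8 at 12.2 and ERCC6 at 6.70. DDB1 (chromosome 11, 61066923 to 61110068, minus strand, GRCh37), a subunit of the CUL4 ubiquitin ligases and of the ultraviolet damage-binding complex, averaged 4203 normalized counts, which placed it at percentile 97.5 among protein-coding genes by count and 88.8 per kilobase. RAD23B (chromosome 9, 110045418 to 110094473, plus strand) stabilises the sensor XPC and carries ubiquitylated proteins to the proteasome. It averaged 3725 normalized counts. CETN2 (chromosome X, 151995538 to 151999301, minus strand), the centrin that joins XPC and RAD23B, averaged 128 and stood 11.9-fold lower than RAD23B per kilobase. ERCC8, which encodes CSA, and ERCC6, which encodes the chromatin remodeller CSB, act where RNA polymerase II stalls. ERCC8 (chromosome 5, 60162281 to 60240900, minus strand) averaged 324. ERCC6 (chromosome 10, 50662214 to 50747584, minus strand) averaged 155, and ERCC8 was 1.83-fold higher than ERCC6 per kilobase.

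Downstream of the sensors, the levels differed between partners that work in the same complex. The TFIIH helicases ERCC3 (XPB) and ERCC2 (XPD) averaged 692 and 425 normalized counts, with ERCC3 1.34-fold higher than ERCC2 per kilobase. XPA, which holds the opened strands, averaged 165 and reached 90.7 per kilobase. ERCC1 (chromosome 19, 45910592 to 45982086, minus strand) and ERCC4 (XPF) form the nuclease that cuts 5' of the lesion. ERCC1 averaged 1074 and ERCC4 530, and ERCC1 was 5.76-fold higher per kilobase, or 4.05-fold with MANE Select transcripts. ERCC5 (XPG, chromosome 13, 103498181 to 103528345, plus strand), the nuclease that cuts 3' of it, averaged 106. Its merged exons share 33.0% of their bases (3641) with the read-through gene BIVM-ERCC5 on the same strand, which was not analysed here. Its MANE Select transcript has 3888 bases. Strand cannot separate reads of the shared stretch, which may have been dropped, so the low level of ERCC5 is uncertain.

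In base excision repair APEX1 and FEN1, which act after the damaged base is gone, had the highest levels per kilobase of merged exons. With MANE Select transcripts PARP1 (535) stood above FEN1 (461). APEX1 (chromosome 14, 20923350 to 20925931, plus strand), the main endonuclease for sites that have lost their base, averaged 1444 normalized counts and lay at percentile 97.7 of protein-coding genes per kilobase. FEN1 (chromosome 11, 61560383 to 61564710, plus strand), which trims flaps in the long-patch branch and in Okazaki fragments, averaged 929 and lay at percentile 94.2. PARP1 (chromosome 1, 226547911 to 226595855, minus strand), the sensor of nicks, averaged 2126 normalized counts and its relative PARP2 398. Per kilobase PARP1 was 1.18-fold higher than PARP2 with merged exons and 2.45-fold higher with MANE Select transcripts. The scaffold XRCC1 and its bound ligase LIG3 averaged 365 and 1060. Per kilobase their order turned, with XRCC1 at 133 and LIG3 at 82.1. POLB, the gap-filling polymerase, averaged 202 and reached 49.3 per kilobase.

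Per kilobase of merged exons the glycosylases ranged from NEIL1 (7.27), the lowest gene of base excision repair, to NEIL3 (292). NEIL3 lay below APEX1 and FEN1. With MANE Select transcripts UNG (460) stood above NEIL3 (360). Of the 3 NEIL enzymes, which remove oxidised bases, NEIL3 (chromosome 4, 178231028 to 178284090, plus strand) averaged 850 normalized counts, NEIL2 337 and NEIL1 (chromosome 15, 75639296 to 75649456, plus strand) 50.4. Per kilobase NEIL3 was 40.1-fold higher than NEIL1 and 2.92-fold higher than NEIL2. NEIL3 is known from proliferating cells, where it also acts on crosslinks at the replication fork. Among the enzymes that remove uracil or thymine from mispairs, UNG (chromosome 12, 109535402 to 109564530, plus strand) averaged 941 normalized counts, TDG 563 and SMUG1 305. UNG was 1.55-fold higher than TDG and 3.53-fold higher than SMUG1 per kilobase. OGG1, which removes 8-oxoguanine, averaged 378, and MUTYH, which removes adenine opposite 8-oxoguanine, averaged 133. Per kilobase of merged exons OGG1 reached 43.2 and MUTYH 22.9, a ratio of 1.89. With MANE Select transcripts they reached 232 and 77.8. MPG, the glycosylase for alkylated purines, averaged 345. It reached 231 per kilobase of merged exons and 333 with the MANE Select transcript. NTHL1, which removes oxidised pyrimidines, averaged 230 and reached 94.7 per kilobase.

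The 5 mismatch repair genes covered a 3.69-fold range per kilobase, against 121-fold over the 11 genes of nucleotide excision and 105-fold over the 17 of base excision repair. With MANE Select transcripts the ranges were 6.67-fold, 57.6-fold and 73.1-fold. A range over fewer genes tends to be narrower, so these values are a description only. MSH6 (chromosome 2, 47922669 to 48037202, plus strand), the subunit that recognises single mispairs and small loops, averaged 2396 normalized counts. MSH3 (chromosome 5, 79950471 to 80172634, plus strand), which takes its place for larger loops, averaged 752. Per kilobase of merged exons MSH3 reached 141 and MSH6 135, whereas the MANE Select transcript gave 169 for MSH3 and 562 for MSH6. The order of the pair thus depends on the length used. Of the MutL subunits, MLH3 averaged 1011, PMS1 497 and PMS2 (chromosome 7, 6010556 to 6048761, minus strand), which carries the main endonuclease activity, 429. Per kilobase of merged exons MLH3 was 1.33-fold higher than PMS1 and 3.17-fold higher than PMS2. With MANE Select transcripts MLH3 (129) fell below PMS1 (157). PMS2 was lowest of the 3 MutL genes per kilobase under each length.

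PMS2 belongs to a family of near-identical copies on chromosome 7, so its reads could have been split or lost. The table held 7 such copies, PMS2CL at 211, PMS2P1 at 153, PMS2P3 at 80.5, PMS2P4 at 67.5, PMS2P5 at 26.8, PMS2P11 at 4.99 and PMS2P9 at 1.91, with a sum of 546. PMS2 itself had 429. ERCC6L2, a related helicase gene with its own sequence, averaged 1077.

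Exons of 21 of the 33 genes overlap exons of other genes in the annotation, and 25 of these 32 overlaps lie on the opposite strand. The libraries were stranded, but whether HTSeq was run with strand is not given in the sources used here, so reads of such stretches may have been assigned to either gene or dropped. More than 25% of exon bases were shared in ERCC1, ERCC5, LIG3, MPG, MUTYH, NEIL1, OGG1 and XRCC1. Some of the overlapping genes were not among the genes analysed, and whether the authors counted reads on them is not known. MUTYH shared 31.6% of its exon bases with such an unnamed gene and 8.45% with TOE1 (187). ERCC1 shared 1593 bases with CD3EAP (538 normalized counts), LIG3 3754 bases with RFFL (1123) and MSH6 4022 bases with FBXO11 (1418). NEIL1, the gene with the lowest count (50.4), shared 1832 bases with MAN2C1 (1326). Some neighbours have annotated starts close together on opposite strands, with 279 bases between those of PMS1 and ORMDL1 (449). The distance was 70 between PARP2 and a gene that the authors' annotation calls RPPH1 (5256). The recent annotation, which gave the distance, lists that gene as an unnamed long non-coding RNA. FEN1 shared 49 bases with FADS2 (5873), whose annotated start lies 69 bases away on the same strand. Each start is the outermost over all annotated isoforms, and which start these cells used was not tested.

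**Figure D3:**
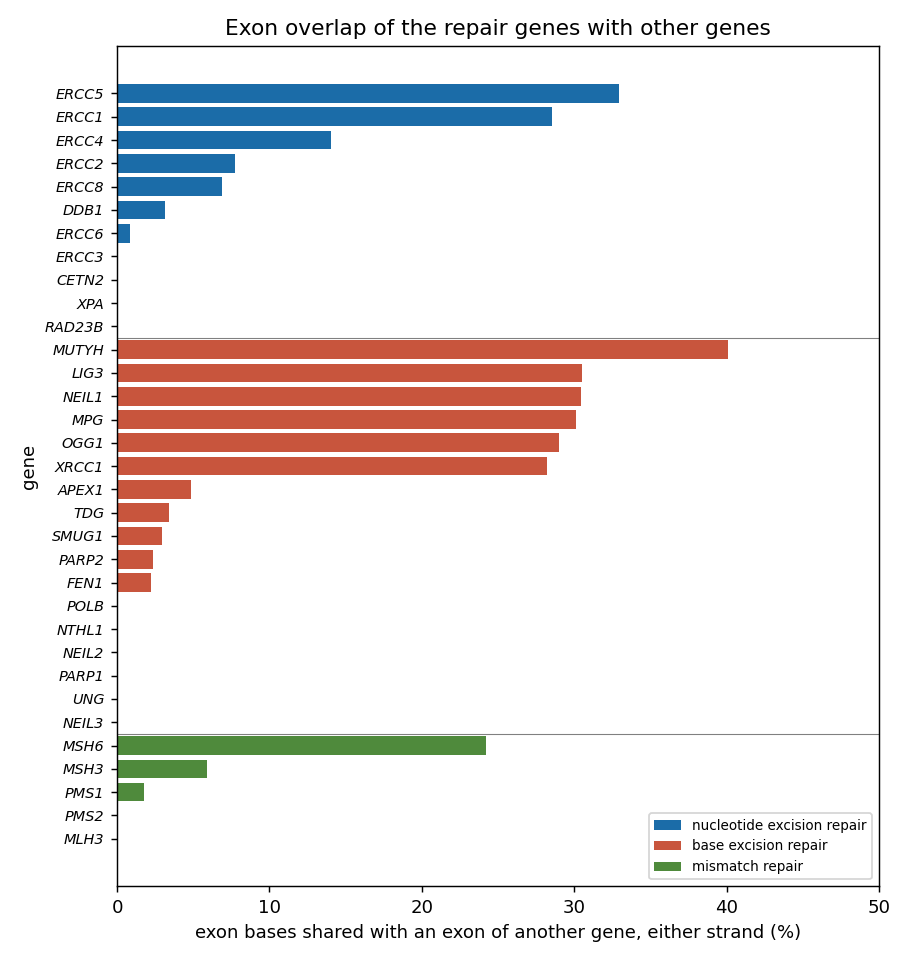
Share of exon bases that lie in an exon of another gene on either strand (x axis, %) for the 33 genes (y axis), as bars coloured by pathway. MUTYH reaches 40.1%, 8 genes exceed 25%, and 12 genes have no overlap.

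Other genes of the same pathways were listed beside the 33. Copies and overlapping genes were searched for the 33 genes only, so reads that these listed genes may have lost to copies are not known. For nucleotide excision repair 15 of 16 listed genes were analysed, with a median of 95.01 per kilobase. GTF2H2, a subunit of TFIIH, had the lowest value (6.16, from 39.0 normalized counts). For base excision repair the 11 genes had a median of 82.4, from the end-processing factor APLF (8.95) to HMGB1 (317). In the mismatch list of 5, EXO1, the exonuclease that removes the new strand, was highest (221) and the meiotic MSH5 lowest (0.306). The 17 genes of DNA synthesis shared by these pathways had a median of 163, from POLD4 (34.9) to PCNA (2339), the sliding clamp, whose level per kilobase exceeded that of each of the 33 genes.

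The cell line was checked against marker genes. Of 9 epithelial and A549 markers 7 averaged 1000 normalized counts or more, among them ALDH1A1 (34836), KRT8 (27600) and AKR1B10 (24595), while EPCAM had 58.4. Of 5 alveolar and lung lineage markers NAPSA alone was among the 22564 genes (17.3), and the others were not found by symbol. For blood it was CD14 (21.5) of 4 and for endothelium CDH5 (7.19) of 3. The 4 stromal markers ranged from 2.13 to 194. YTHDC1, the target, averaged 232 over libraries with and without its depletion. How far these markers bear on the levels above was not tested.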

How the data were processed

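Total RNA of 12 A549 libraries, 6 siYTHDC1 and 6 siSCR by their labels, had been depleted of ribosomal RNA and made into stranded libraries. The authors mapped reads to hg19 (STAR), obtained gene counts on Gencode release 19 (HTSeq), and fitted DESeq2 with a term for 2 sequencing batches. The deposited table holds 1 row per gene. Its signal column, the mean over all libraries of counts divided by size factors, was used as deposited. The 5 other numeric columns hold the fold change of the groups, its standard error, the test statistic and both p-values; as columns of the authors' own comparison they were neither used nor compared. Without values per library the planned test of siYTHDC1 against siSCR was not run, and depth and counting error per library are unknown.

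Rows were matched by gene ID without version to Gencode release 44 on GRCh37 (21798 of 22564 rows, 96.6%), which gave positions, gene types, exon lengths and overlaps that can differ from release 19. A mean was divided by the bases of merged exons and multiplied by 1000. Percentiles are the percent of rows with a lower value. All 33 genes are named, with overlapping rows and copies by symbol. Some genes that this rule names are left out of the text. Members and lists were chosen with earlier results of these data known. Percentiles were tested on simulated data. Python 3.11.15, pandas 2.3.3, numpy 2.4.6 and matplotlib 3.10.9 were used.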

Additional observations from a re-analysis of the deposited data

How the results depend on the processing

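Levels rest on 1 mean per gene, so no library could be left out. No paired analysis was possible because the table has no column per library. Summing the rows of a symbol changed nothing, since each had 1 row. Of 70 alternative values 37 stayed within 1.5 times the value given above (percentiles: within a 95% Wilson interval), 24 moved further and 9 reversed an order. The Wilson interval covers only the sampling of rows, while each percentile alternative changed the set of genes or the scale. Moves of percentiles beyond it were therefore likely in advance, and the sums of rows could not move. These counts are a description and not a measure of robustness. MANE Select, and the longest transcript for the pathway order, were chosen after seeing the data.

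Median levels per kilobase were 104 in nucleotide excision repair with the longest and with the MANE Select transcript, and 178 and 218 in base excision repair. The median percentiles of 73.1, 71.0 and 82.8 in nucleotide excision, base excision and mismatch repair became 57.8, 54.8 and 72.9 among protein-coding genes, 62.2, 59.4 and 75.8 among genes at 10 or more, 65.7, 74.8 and 79.3 when ranked per kilobase, and 51.5, 72.6 and 63.3 per kilobase of the MANE Select transcript. The median of mismatch over base excision repair, 1.21 per kilobase, was 0.961 by the geometric mean, 0.738 without members that overlap other genes, 0.818 with the longest and 0.722 with the MANE Select transcript. That of mismatch over nucleotide excision repair, 1.78, was 0.920 without overlapping members, and that of base excision over nucleotide excision repair, 1.47, was 1.25. Without overlapping members, mismatch repair rests on MLH3 and PMS2 alone. Nucleotide excision repair then rests on CETN2, ERCC3, RAD23B and XPA, so these medians are of very few genes.

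Between partners, MSH3 over MSH6 was 0.536 with the longest and 0.301 with the MANE Select transcript, and MLH3 over PMS1 0.890 and 0.822. MLH3 over PMS2 was 2.05 and 1.53, and NEIL3 over NEIL1 26.5 with both. MANE Select gave 2.46 for ERCC3 over ERCC2, 2.45 for PARP1 over PARP2, 2.60 for UNG over TDG and 2.98 for OGG1 over MUTYH. Of 17 pairs 15 kept their order under all 3 lengths. These shifts come from the length alone, since the mean in them is the same.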
